A study of Lytechinus variegatus with 9 samples.

Results

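The genes myoD (LOC121405904) and myoR2 (LOC121430479) of the sea urchin Lytechinus variegatus, which encode basic helix-loop-helix (bHLH) transcription factors of the muscle programme, were followed across the 9 libraries of a drug study. They were taken by gene identifier and are 2 of the 26814 genes in the count table. The gene called myoD is annotated as the transcription factor SUM-1, and myoR2 as a transcription factor 21-like gene whose closest listed protein is mouse musculin. Both belong to the bHLH family in the family column that accompanies the counts.

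The study asked which transcripts of the late larval skeleton need BMP or VEGF signalling. Wild-type whole embryos from 3 separate matings were split among carrier alone (DMSO, the control), 1 µM K02288, an inhibitor of type I BMP receptors, and 75 nM axitinib, an inhibitor of VEGF receptors. Drugs were added between 18 and 20 hours after fertilization, when the first skeletal rudiments had formed, and the embryos were collected at 2 days. The labels give 21 °C for the cultures. Each mating gave 1 library of poly-A RNA per treatment, so n = 3 libraries per treatment, and DMSO, K02288 and axitinib embryos of 1 mating share parents. The drugs were given to whole embryos, so a change cannot be assigned to 1 tissue.

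MyoD-family proteins bind E-box sequences as dimers with E proteins such as TCF12 and switch on muscle genes, and Id proteins block them by taking up the E proteins. Musculin (MyoR) and its relative TCF21 are bHLH proteins of the same dimer-forming kind that in vertebrates can repress myogenic targets and mark muscle and mesenchymal precursors. In the sea urchin larva, the muscles around the oesophagus form from cells of the coelomic pouches. The study's source also lists ventral skeletal expression for both genes and blastocoelar cell expression for myoR2, so neither is a marker of muscle alone. Primary mesenchyme cells (PMCs) are the cells that build the skeleton and carry the VEGF receptor.

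In the RefSeq annotation of the Lvar_3.0 assembly, myoD lies on chromosome 19 from 6436896 to 6438203 on the plus strand. Its span of 1308 bp equals its transcript length of 1308 bases, so the gene model has no intron. myoR2 lies on chromosome 17 from 14013952 to 14024850 on the minus strand, with a span of 10899 bp and a transcript of 2687 bases. No other annotated gene overlaps either of them.

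Library totals ran from 9359212 to 11815263 counts, with 9942452 to 11815263 in DMSO, 11469191 to 11565219 with K02288 and 9359212 to 10921655 with axitinib. Matings differed widely, and 59.1% of 16866 genes differed between matings in edgeR at an unadjusted p of at most 0.05. For this reason values are given by mating, and a fit that includes mating (replicate block) is quoted where it changes a call. A normalized count below is a count scaled by edgeR's TMM factors to the mean size of the 9 libraries.

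In control embryos both genes were expressed at a moderate level, with myoR2 above myoD. Per length of transcript, the deposited FPKM in DMSO was 4.05 ± 0.483 (SD, n = 3) for myoD and 7.20 ± 2.24 (SD, n = 3) for myoR2. These levels lay above those of 60.9% and 72.8% of the 22667 protein-coding genes. With axitinib the FPKM was 0.639 ± 0.292 (SD, n = 3) for myoD and 1.72 ± 0.335 (SD, n = 3) for myoR2, above 36.0% and 46.3% of protein-coding genes. With K02288 it was 2.21 ± 1.12 (SD, n = 3) and 5.72 ± 1.77 (SD, n = 3). For both genes the order of the mean levels was DMSO, K02288, axitinib, and which of these neighbours differed is given with each comparison.

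myoD had low counts. In matings 1, 2 and 3 its raw counts were 47, 64 and 62 in DMSO, 25, 52 and 22 with K02288, and 13, 8 and 5 with axitinib. The axitinib library of mating 3, with 5 counts, has an exact Poisson 95% interval of 1.62 to 11.7 counts, and its DMSO partner, with 62, one of 47.5 to 79.5. Every axitinib library lay below every other library, whereas the K02288 library of mating 2 came close to the controls. The intervals here and below cover counting error only.

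myoR2 had higher counts. Its raw counts in matings 1, 2 and 3 were 157, 323 and 167 in DMSO, 170, 231 and 126 with K02288, and 53, 56 and 35 with axitinib. Mating 2 was the highest for myoR2 in DMSO and with K02288. The axitinib libraries again lay below all others, but the K02288 and DMSO libraries overlapped.

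**Figure D1:**
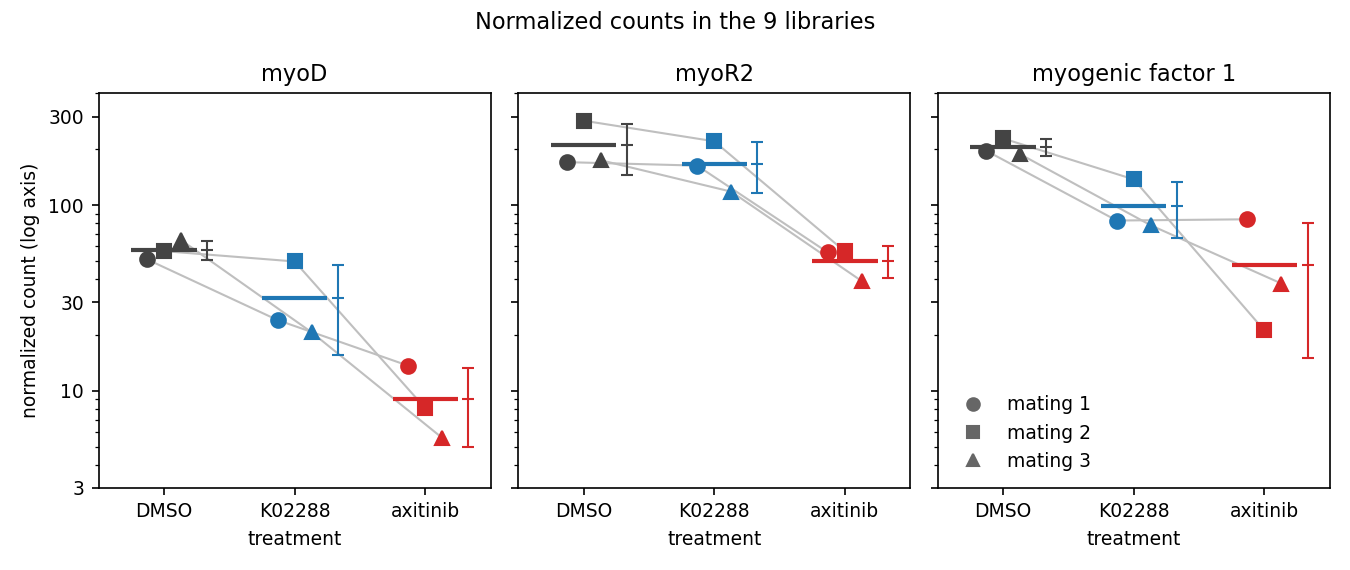
Normalized counts (log axis) of myoD, myoR2 and the gene next to myoD, myogenic factor 1, in the 9 libraries, with 1 marker per mating, lines joining libraries of the same mating, a thick bar for the mean and a thin bar for ± 1 SD (n = 3). For myoD and myoR2 the 3 axitinib libraries sit below every DMSO and K02288 library. The 3 K02288 libraries of myoD sit below the 3 DMSO libraries, that of mating 2 (49.8) only just and those of matings 1 (24.0) and 3 (20.7) further down.

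Axitinib lowered both genes in every mating. The normalized count of myoD was 51.1, 56.6 and 64.9 in the DMSO libraries of matings 1, 2 and 3 and 13.6, 8.05 and 5.57 in the axitinib libraries. The means were 57.5 ± 6.97 and 9.09 ± 4.14 (SD, n = 3 each), a log2 fold change of -2.64 (SE 0.46, 95% interval -3.72 to -1.57), with an unadjusted p of 0.000512 and a Benjamini-Hochberg adjusted p of 0.124 in edgeR's quasi-likelihood test. It was the 31st most negative fold change of the 16035 genes tested.

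For myoR2 the normalized counts were 170.7, 285.5 and 174.9 in DMSO and 55.6, 56.4 and 39.0 with axitinib. The means were 210.4 ± 65.1 and 50.3 ± 9.84 (SD, n = 3 each), a log2 fold change of -2.06 (SE 0.30, 95% interval -2.76 to -1.36, unadjusted p 0.000155, adjusted p 0.0652 in edgeR). Its fold change was the 57th most negative. Both genes thus passed the unadjusted threshold that the study's methods use, and neither passed after adjustment over all genes. With mating fitted (replicate block), the fold changes were -2.66 and -2.04 and both passed after adjustment in edgeR (adjusted p 0.00104 for myoD and 9.17e-06 for myoR2), as did 3.44% of genes in this direction. In DESeq2 without mating both also passed (adjusted p 0.000622 and 3.3e-06), as did 0.47% of genes.

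Among all genes tested, 3.07% were called lower with axitinib at the unadjusted threshold, 8.87% with mating fitted, and 5.59% had all 3 axitinib libraries below all 3 DMSO libraries. Both members fell into each of these classes. The study had marked both genes as lower with axitinib in these same libraries, so the count of 2 is no independent evidence. In whole-embryo RNA, fewer cells of a type and less RNA per cell cannot be told apart.

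Within matings, the axitinib level of myoD was 26.7% of the DMSO level in mating 1 (exact 95% interval 13.3 to 50.2%), 14.2% in mating 2 (5.89 to 29.8%) and 8.57% in mating 3 (2.69 to 21.1%). The 3 intervals overlap, and whether matings differed in their response was not tested. For myoR2 the axitinib level was 32.6% (23.4 to 44.8%), 19.7% (14.6 to 26.3%) and 22.3% (15.0 to 32.2%) of DMSO. The spread of the 3 ratios was narrower for myoR2 than for myoD, and every interval of either gene ended well below 100%.

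**Figure D2:**
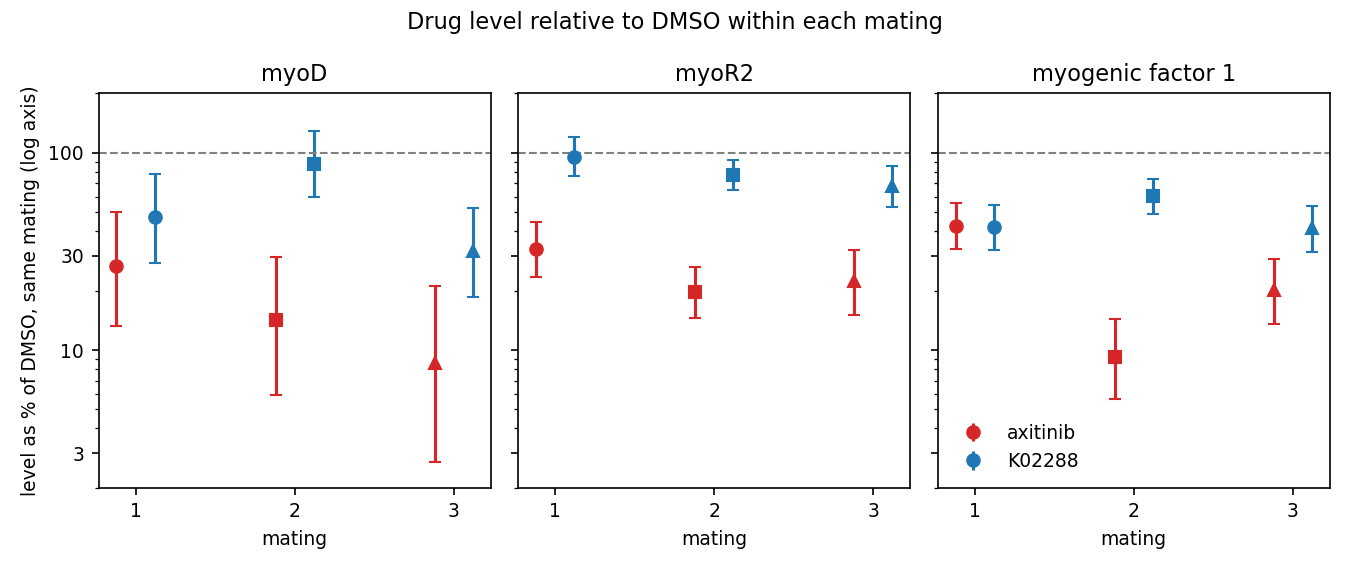
Level with axitinib or K02288 as a percentage of the DMSO library of the same mating (log axis) for myoD, myoR2 and myogenic factor 1, with exact 95% intervals for counting error and a dashed line at 100%. All axitinib intervals lie below 100%, with levels of 8.57% to 26.7% for myoD and 19.7% to 32.6% for myoR2, while the K02288 intervals of myoD in mating 2 and myoR2 in mating 1 cross 100%.

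With K02288 both genes had lower values than DMSO in every mating, but neither passed the threshold in the main test, which has no term for mating. The normalized count of myoD with K02288 was 24.0, 49.8 and 20.7 in matings 1, 2 and 3, with a mean of 31.5 ± 15.9 (SD, n = 3). The log2 fold change against DMSO was -0.87 (SE 0.42, 95% interval -1.86 to 0.12, unadjusted p 0.0762, adjusted p 1.00 in edgeR). The 3 K02288 libraries lay below the 3 DMSO libraries by a narrow margin, since the lowest DMSO library (51.1) was 1.03 times the highest K02288 library (49.8), and 3.51% of the 16288 genes tested were parted in this way.

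The K02288 values of myoR2 were 163.5, 221.1 and 118.4, with a mean of 167.6 ± 51.5 (SD, n = 3). They overlapped those of DMSO, and the log2 fold change was -0.33 (SE 0.31, 95% interval -1.05 to 0.39, unadjusted p 0.315, adjusted p 1.00 in edgeR). Fitting mating (replicate block) changed both calls: the fold change was -0.93 for myoD (unadjusted p 0.0137, adjusted p 0.190) and -0.33 for myoR2 (unadjusted p 0.0426, adjusted p 0.350). With mating fitted over all 9 libraries at once, myoD still passed (unadjusted p 0.0244) and myoR2 did not (unadjusted p 0.0525, adjusted p 0.388). At the unadjusted threshold 1.23% of genes were called lower with K02288 without mating in the fit and 5.9% with it. Without mating in the fit, leaving out the K02288 library of mating 2 also moved myoD past the threshold (log2 fold change -1.37, unadjusted p 0.0128 in edgeR).

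The K02288 difference of myoD was seen in matings 1 and 3. Its level was 47.0% of DMSO in mating 1 (exact 95% interval 27.8 to 78.0%) and 31.8% in mating 3 (18.6 to 52.5%), but 88.0% in mating 2 (59.8 to 129%). For myoR2 it was 95.8% (76.6 to 120%), 77.4% (65.1 to 92.0%) and 67.7% (53.3 to 85.8%) in matings 1, 2 and 3. Thus mating 1, where myoD was lower with K02288, was the mating in which myoR2 did not differ beyond counting error. A value lower in all 3 matings was found for 16% of the genes tested with K02288 and for 18.3% with axitinib.

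The drugs were also compared with each other, on libraries that do not include DMSO. The study lists both genes as lowered specifically by axitinib, which drew on these same axitinib and K02288 libraries. Neither this comparison nor that of K02288 with DMSO is therefore independent evidence. With axitinib myoD was lower than with K02288 by a log2 fold change of -1.78 (SE 0.58, 95% interval -3.14 to -0.41, unadjusted p 0.0174, adjusted p 0.660 in edgeR), and myoR2 by -1.73 (SE 0.31, 95% interval -2.46 to -1.01, unadjusted p 0.000661, adjusted p 0.157). The axitinib libraries did not overlap the K02288 libraries for either gene, as for 5.46% of the 16197 genes tested, and 3.22% were called lower at the unadjusted threshold. With mating fitted, 10.4% of genes were called lower and both members passed after adjustment (adjusted p 0.0443 for myoD and 3.68e-05 for myoR2), as did 5.06% of genes. In edgeR without mating in the fit, the myoD call was lost when certain single libraries were left out. These were the K02288 library of mating 2 (-1.28, p 0.106) and the axitinib libraries of mating 2 (-1.70, p 0.0577) and mating 3 (-1.53, p 0.0625). Leaving out 1 library was not run with mating fitted. Within matings the axitinib level of myoD was 56.8%, 16.2% and 26.9% of the K02288 level, and in mating 1 its exact 95% interval (26.7 to 115%) reached 100%. For myoR2 the ratios were 34.0%, 25.5% and 32.9%, with all 3 intervals below 100%.

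Whether the 2 genes kept their proportion was asked with the log2 ratio of the myoD count to the myoR2 count in each library. The myoD count was 29.9%, 19.8% and 37.1% of the myoR2 count in DMSO, 14.7%, 22.5% and 17.5% with K02288, and 24.5%, 14.3% and 14.3% with axitinib, in matings 1, 2 and 3. The mean log2 ratio was -1.83 ± 0.46 in DMSO, -2.48 ± 0.31 with K02288 and -2.55 ± 0.45 with axitinib (SD, n = 3 each). The differences from DMSO, -0.64 with K02288 and -0.71 with axitinib, had exact two-sided permutation p of 0.2 each, where 0.1 is the smallest this design allows. With 3 libraries per treatment this test cannot reach 0.05, so it says nothing on whether the proportion changed. The ranges of the treatments overlapped.

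Apart from the drugs, the matings differed for myoR2 but not detectably for myoD. In an edgeR fit of all 9 libraries with treatment and mating, the matings of myoR2 spanned 0.74 in log2, with mating 2 at 0.45 and mating 3 at -0.29 relative to mating 1 (adjusted p 0.00512). The span of myoD was 0.47 (adjusted p 0.573). The call for myoR2 is common, since 52.7% of genes passed at an adjusted p under 0.05.

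Next to myoD stands a second gene with a myogenic name. LOC446195, annotated as myogenic factor 1, lies 33044 bp downstream on the same strand (chromosome 19, 6471248 to 6479072), and its closest listed protein is also SUM-1, although it carries no bHLH family entry and is typed as a miscellaneous RNA. It was taken up after its values had been seen. Because both models point to SUM-1 and no sequences were compared, a share of reads between them cannot be told apart from separate expression.

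Raw counts of myogenic factor 1 in matings 1, 2 and 3 were 181, 259 and 180 in DMSO, 86, 144 and 83 with K02288, and 80, 21 and 34 with axitinib. Its axitinib and K02288 libraries all lay below the DMSO libraries, as for 5.59% of genes tested with axitinib and 3.51% with K02288. The log2 fold change was -2.10 with axitinib (SE 0.46, unadjusted p 0.00200, adjusted p 0.297 in edgeR) and -1.04 with K02288 (SE 0.27, unadjusted p 0.00555, adjusted p 1.00 in edgeR). With mating fitted both passed after adjustment (adjusted p 0.000205 and 0.00158), as did 3.44% of genes for axitinib and 1.05% for K02288 in this direction. The K02288 value did not pass after adjustment when mating was fitted over all 9 libraries (adjusted p 0.0648). Against K02288, axitinib gave -1.06 (unadjusted p 0.0753), and -1.14 with mating fitted (unadjusted p 0.0082, adjusted p 0.0818 in edgeR). Its axitinib level was close to its K02288 level in mating 1 (102%, exact 95% interval 74.0 to 139%) and 15.3% of it in mating 2 (9.21 to 24.3%).

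The next gene along, LOC121405674, is annotated as a MyoD homologue on the opposite strand, 57082 bp from myoD, and had 0 counts in all 9 libraries, which allows up to 3 counts in each. A further MyoD homologue elsewhere, LOC121418264, had from 0 to 7 counts. Of the genes with a MyoD-like name, those with counts enough to test were therefore myoD and myogenic factor 1. The nearest neighbour of myoD on the other side with enough counts, a brain-derived neurotrophic factor-like gene (LOC121406145), had a log2 fold change of -0.04 with axitinib. A myoR2 neighbour annotated as SHOC-2-like (LOC121431003), 23868 bp away, had one of 0.13. It is not the gene nearest to myoR2, which is the uncharacterized LOC121431220 at 9691 bp, whose fold change is not given.

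Of the other bHLH genes with counts enough for edgeR's test, none had as low a fold change with axitinib as the 2 members. The family column holds 60 bHLH genes, of which 6 had no counts. Of the 58 besides the 2 members, 37 could be tested. With axitinib 1 was called lower (2.70%, against 3.07% of all genes) and 0 higher (against 1.77%). DESeq2 called 0 lower and 1 higher. The median log2 fold change of the 37 in edgeR was -0.03, against 0.01 over all genes. The one called lower was twist (LOC121426626), a regulator of mesoderm, at -1.20 (unadjusted p 0.0459), with 27, 18 and 25 counts in DMSO and 8, 9 and 12 with axitinib. With mating fitted 6 were called lower (16.2%, against 8.87% of all genes) and 3 higher (8.11%, against 8.96%).

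The dimer partners did not pass the threshold with axitinib. TCF12 (LOC121410251), the E protein that pairs with MyoD in other animals, had 2106, 2530 and 2336 counts in DMSO and 2218, 2544 and 1935 with axitinib, a log2 fold change of 0.01 (unadjusted p 0.913). The Id-like extra-macrochaetae gene (LOC121431399), an inhibitor of bHLH factors in Drosophila, had 0.16 (unadjusted p 0.344). With K02288 TCF12 had 0.26 (unadjusted p 0.0601, and 0.00934 with mating fitted in the replicate block) and extra-macrochaetae -0.05 (unadjusted p 0.711). With this drug 1 of the 37 tested bHLH genes was called lower (2.70%, against 1.23% of all genes), AP-4 (LOC121425503) at -0.46 (unadjusted p 0.0342 in edgeR). With mating fitted 4 were called lower (10.8%, against 5.9% of all genes) and 3 higher (8.11%, against 7.26%).

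Regulators that act with MyoD in muscle of other animals were listed by annotation, and the 15 reported here are of the Mef2, FoxF, FoxL1, FoxC, Eya, Dach, Pitx and Snail kinds. With axitinib 0 of the 14 tested in edgeR were called in either direction at the unadjusted threshold. Over all genes 3.07% were called lower and 1.77% higher. DESeq2 called 0 of 15. Mef2 (LOC121415207), a partner of MyoD, had -0.15 with axitinib (unadjusted p 0.282). With K02288 1 of 14 was called lower in edgeR (7.14%, against 1.23% of all genes) and 1 higher (7.14%, against 1.22%). The one called lower, a Pitx gene (LOC121431895), fell by 2.27 on the log2 scale (unadjusted p 2.04e-06, edgeR), from 365, 459 and 448 counts in DMSO to 94, 87 and 97. Another Pitx gene with the same description (LOC121405583) did not pass with K02288 (-0.0016, unadjusted p 0.998 in edgeR). It had 12, 28 and 10 counts in DMSO and 17, 16 and 18 with K02288. FoxC1 (LOC121415051) rose by 2.49 (unadjusted p 0.00976), from 9, 18 and 19 counts to 45, 34 and 196, so 1 library stood far above the rest. With mating fitted 1 of the listed regulators was called lower with K02288 (7.14%, against 5.9% of all genes) and 6 higher (42.9%, against 7.26%). With axitinib 1 was called lower and 1 higher in that fit (7.14% each, against 8.87% and 8.96% of all genes).

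The contractile genes, 48 by annotation (troponins, tropomyosins, titins, myosin light chains and others), had mostly small fold changes with axitinib. Of 37 tested with axitinib, 3 were called lower and 0 higher (DESeq2 also called 3 and 0), with a median of -0.13, and with mating fitted 10 were called lower and 3 higher. The share lower was thus 8.11%, against 3.07% of all genes, and 27.0% against 8.87% with mating fitted. The share higher was 0%, against 1.77% of all genes, and 8.11% against 8.96% with mating fitted. Of the 3 called lower in the main test, 1 was a myosin regulatory light chain 12A-like gene (LOC121430899, -2.96, unadjusted p 0.00257 in edgeR), whose description does not name muscle. It had 14, 29 and 49 counts in DMSO and 5, 4 and 2 with axitinib. The others were 2 titin-like genes (LOC121432071, -0.57, and LOC121417682, -0.80). Troponin I (LOC121421054) had -0.23 and tropomyosin (LOC121415027) -0.09, neither past the threshold. The summed normalized count of the list was 56963 to 62731 with axitinib, 61957 to 67163 in DMSO and 65042 to 67505 with K02288. With K02288, 0 of 38 were called in either direction in edgeR, against 1.23% of all genes lower and 1.22% higher. DESeq2 called 1 of 47 lower (2.13%, against 0.857% of all genes) and 0 higher (against 0.979%). With mating fitted 4 were called lower (10.5%, against 5.9% of all genes) and 5 higher (13.2%, against 7.26%).

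**Figure D3:**
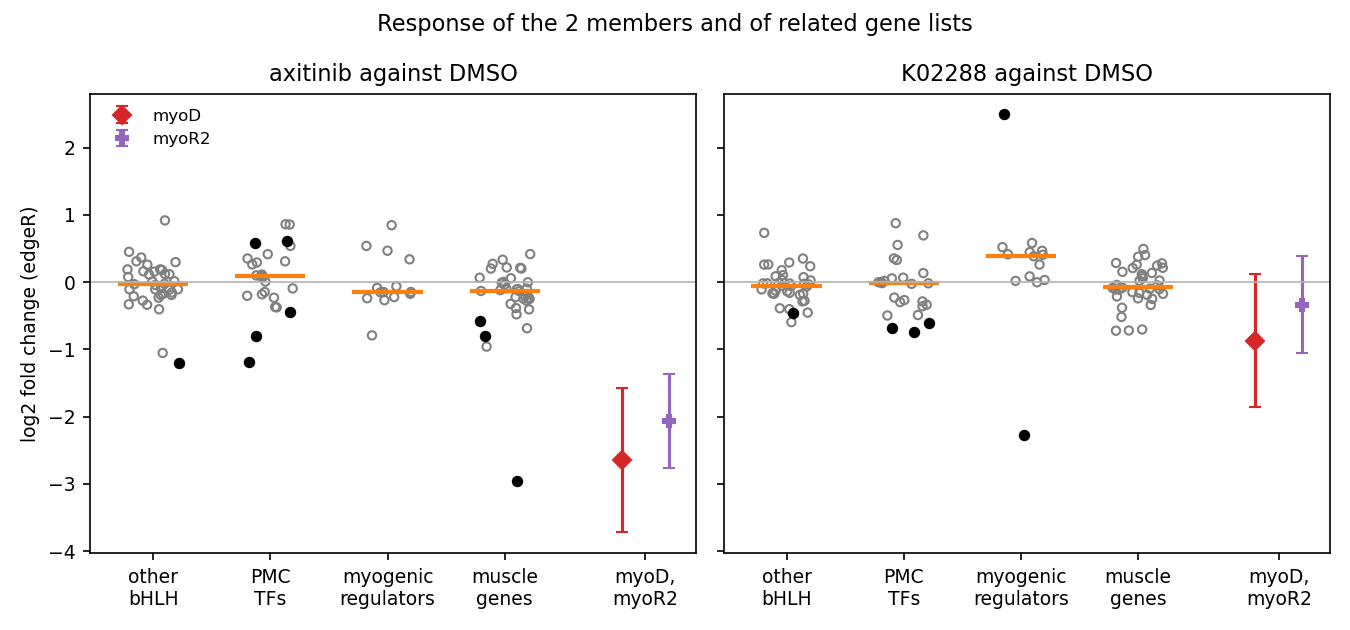
Log2 fold change in edgeR (vertical axis) against DMSO for axitinib (left) and K02288 (right), with 1 point per tested gene of each list, filled points for those at an unadjusted p of at most 0.05, an orange bar for the list median, and myoD and myoR2 with 95% intervals. With axitinib myoD (-2.64) and myoR2 (-2.06) lie below every other tested bHLH gene, listed PMC transcription factor and myogenic regulator. They also lie below all genes of the muscle list except 1, a myosin regulatory light chain 12A-like gene at -2.96.

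Skeletogenic genes moved in the same libraries. Of 300 tested PMC-enriched genes, neither member being on that list, 43 were called lower and 3 higher with axitinib (median -0.13), and 86 lower and 16 higher with mating fitted. The share lower was 14.3%, against 3.07% of all genes, and 28.7% against 8.87% with mating fitted. The share higher was 1%, against 1.77% of all genes, and 5.33% against 8.96% with mating fitted. On this list 1 gene had a more negative fold change than myoD and 2 had than myoR2. The summed PMC-enriched count was 352373 to 371365 with axitinib and 383458 to 418555 in DMSO. The VEGF receptor vegfr-Ig10 (LOC121408625) had 563, 743 and 723 counts in DMSO and 331, 272 and 277 with axitinib, a log2 fold change of -1.12 (unadjusted p 0.0002), against 0.02 with K02288. Among the other 25 transcription factors taken in this way from the study's PMC list, 3 were called lower (12%, against 3.07% of all genes) and 2 higher (8%, against 1.77%). They were ets1 (-1.19), hhex (-0.79) and prox1 (-0.44) lower and erg (0.61) and alx1 (0.58) higher. Thus alx1 and ets1, both regulators of the skeletal lineage, had fold changes of opposite sign. With mating fitted 6 were called lower (24%, against 8.87%) and 7 higher (28%, against 8.96%).

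The 4 genes taken as markers of blastocoelar cells, a cell type in which myoR2 is also expressed, are not particular to it. The study shows scl and gata3 in PMCs, and gata3, prox1 and erg are also on its list of PMC transcription factors. Their log2 fold changes with axitinib were 0.11 (scl), -0.37 (gata3), -0.44 (prox1) and 0.61 (erg), with prox1 called lower and erg higher. With mating fitted gata3 was called lower too (-0.37, unadjusted p 0.012). Their summed normalized count was 1475 to 1743 with axitinib and 1702 to 1977 in DMSO. Of 13 pigment cell markers 9 were tested with axitinib. In edgeR 0 were called lower (against 3.07% of all genes) and 1 higher (11.1%, against 1.77%). DESeq2 also called 0 lower and 1 higher. With mating fitted 0 were called lower and 4 higher (44.4% of those tested, against 8.96% of all genes). The part of skeletal, blastocoelar or muscle cells in the fall of myoD and myoR2 was not tested.

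Across the 9 libraries the log2 CPM of the 2 members was correlated with a Pearson r of 0.937, as a description over libraries that share 3 matings and 3 treatments. Of 16865 other genes, 48 had an r over 0.9 with myoD and 56 with myoR2. The 5 most like myoD were LOC121429903 (uncharacterized, r 0.978), a glycine receptor alpha-1-like gene (LOC121411490, 0.974), ets1 (LOC121419770, 0.968), a kappa-type opioid receptor-like gene (LOC121426470, 0.962) and Pax-2a-like (LOC121432245, 0.960). The 5 most like myoR2 were an L-rhamnose-binding lectin (LOC121414426, 0.983), a glycine transporter 1-like gene (LOC121424436, 0.981), a spectrin beta chain (LOC121418883, 0.981), a VCPIP1-like gene (LOC121417314, 0.976) and ets1 (0.971). Only ets1 stood on both lists, with raw counts of 424, 622 and 522 in DMSO, 473, 489 and 372 with K02288, and 251, 224 and 173 with axitinib. When the mean of each mating was removed, the r between the members was 0.944, and 256 genes had an r over 0.9 with myoD and 314 with myoR2. The most like were then LOC121429903 for myoD (0.992), followed by LOC121411073, cysteine dioxygenase, cytochrome P450 2U1-like and SEC14-like genes. For myoR2 they were wnt inhibitory factor 1-like (LOC121411384, 0.995), RECK-like, an MGP4-like xylosyltransferase, the lectin and the glycine transporter.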

How the data were processed

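Per the methods, the authors mapped reads to L. variegatus genome version 3.0 with HISAT2 (version not given in the sources used here) and deposited raw whole-number counts per gene; the counting tool is not given there either. The authors also deposited FPKM values for the same genes. CASAVA 1.8 is listed in the submitters' processing notes. No replicates were pooled. Positions and descriptions came from the count table, and all 26814 identifiers matched the RefSeq Lvar_3.0 annotation with the same coordinates.

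The tests used edgeR 4.0.16 under R 4.3.3 (genes kept by filterByExpr, TMM scaling, glmQLFit, glmQLFTest) on the 6 libraries of each pair of treatments, with no term for mating, which the authors' own DESeq2 test did not have either. The threshold was their unadjusted p of at most 0.05, with Benjamini-Hochberg adjustment over all genes beside it. Both drugs are compared with the same DMSO libraries. Ratios within a mating have exact conditional binomial intervals at 95%. The limit for 0 counts is 3 counts.

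The methods state that replicates came from separate matings. With treatment means removed, log2 CPM correlated with r of 0.706 to 0.750 for the 9 pairs of the same mating and -0.420 to -0.327 for the 18 other pairs, so the replicate number pairs the libraries. Alternatives were RLE normalization, no filter, at least 10 counts in every library, DESeq2 1.42.0, a single fit of all 9 libraries, mating as a term (replicate block), limma 3.58.1 on log2(FPKM + 1) and log2(FPKM + 0.1), and leaving out each library. The block with all 9 libraries, and every alternative for myogenic factor 1, were added after seeing the data.

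The members and the gene lists were chosen with earlier results of these data known. One result of the list of myogenic regulators is not reported here, and the counts and the plot of that list are without it. Named genes were the members, vegfr-Ig10, all genes of lists with at most 12 tested, of longer lists those past the threshold with axitinib (at most 4 per direction by lowest p), and the 5 genes most correlated with each member. Neighbours, myogenic factor 1 and the other MyoD-named genes, TCF12, extra-macrochaetae, Mef2, Pitx, FoxC1, AP-4, troponin I and tropomyosin fall outside this rule and were named after their values were seen; pigment markers are given as counts. The tests were run first on simulated counts with known changes. Figures used matplotlib 3.10.9. No sequences were printed, since no sequence of these genes was used here.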

Additional observations from a re-analysis of the deposited data

How the results depend on the processing

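With axitinib against DMSO, myoD and myoR2 stayed lower and past the threshold under every alternative that gave a value, with log2 fold changes of -3.05 to -2.40 and -2.20 to -1.77 when 1 library was left out. Limma on log2(FPKM + 1), a scale that shrinks the fold changes of low genes, gave -1.63 for myoD (and -0.93 against K02288) and -1.57 for myoR2. With K02288 against DMSO, myoD passed the threshold with the replicate block (-0.93), with the block over all 9 libraries (-0.93, added after seeing the data), and with limma on log2(FPKM + 1) (-0.70) and log2(FPKM + 0.1) (-0.94). Leaving out 1 library gave -1.37 to -0.64. For myoR2 with K02288 the block gave -0.33 with a p of 0.0426 in edgeR, the block over all 9 libraries -0.33 with a p of 0.0525, and leaving out 1 library gave -0.59 to -0.05. For axitinib against K02288, leaving out 1 library gave -2.18 to -1.28 for myoD and -1.93 to -1.48 for myoR2. The block changed no other call of a member at the unadjusted threshold.

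Genes called at the unadjusted threshold went from 777 to 2859 with the block for axitinib, from 399 to 2144 for K02288 and from 808 to 3170 between the drugs, while the biological coefficient of variation went from 0.332 to 0.127, 0.340 to 0.124 and 0.338 to 0.119.

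For the log2 ratio of myoD to myoR2, signs permuted within matings (replicate block, exact) gave p of 0.25 with axitinib, 0.5 with K02288 and 1 between the drugs, where 0.25 is the smallest. Between the drugs the difference of -0.07 was between -0.33 and 0.094 without 1 library, and changed sign in 3 such fits (0.061, 0.094 and 0.061). The cause was not tested. From DMSO it was -0.97 to -0.51 with axitinib and -0.89 to -0.44 with K02288.

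The span of matings was 0.20 to 0.99 for myoD and 0.63 to 0.85 for myoR2 without 1 library. At least 10 counts in every library left myoD untested with axitinib and between matings, since 2 of its axitinib libraries have fewer. The 5 to 13 counts of myoD with axitinib limit its precision.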
